A study of Mus musculus with 6 samples.

Results

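The genes described here are 10 of the 31055 counted features: Ifnb1, Ifih1, Ddx58, Dhx58, Irf3, Irf7, Mavs, Tlr3, Ifnar1 and Ifnar2. They come from a list of type I interferon and RNA sensing genes. Ifnb1 and Ifih1 were selected on their lower UMI counts in DCIS than in Prepuberty in macrophages of these same libraries, and the other 8 were chosen by their place in the pathway. That contrast in macrophage-like cells is therefore given as a description, without a test. Single cells were sequenced from female C3(1)-Tag (C3Tag) mice, in which the SV40 large T antigen, driven by the C3(1) promoter, gives mammary tumours on an FVB/NJ background. All 6 libraries carry the transgene, and no library of a mouse without it was analysed here. There were 2 libraries per group. Prepuberty glands were taken whole at 5 weeks, DCIS libraries came from whole glands bearing ductal carcinoma in situ at 14 weeks, and Tumor libraries came from palpable tumours of mice older than 18 weeks.

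The labels do not say whether the libraries of a state came from different animals, so an SE or p-value measures the spread between libraries, which may be technical. The labels describe the same enzymatic digestion for glands and tumours, but the study's methods name another dissociation kit for tumours and a later 10x kit version for Tumor 2. Dissociation and state, and kit version and library, then cannot be told apart. After filtering, 21537 cells with 237053414 unique molecular identifiers (UMIs, each counting 1 captured RNA molecule) remained, with a median of 6541 to 13631.5 UMIs per cell in a library. Libraries shared 9 to 39 cell barcodes per pair. Macrophage-like cells numbered 99 and 83 in Prepuberty 1 and 2, 245 and 169 in DCIS 1 and 2, and 426 and 187 in Tumor 1 and 2. They formed 1 cluster, led by Lyz2, Ccl4, C1qa, Ccl3 and C1qb, in which 6 of the 7 macrophage markers passed the naming rule. Levels are CPM (counts-per-million) of the UMIs of all cells of a class in a library. Fold changes come from edgeR on the same sums and include its TMM scaling, so they need not equal ratios of CPM.

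Double-stranded RNA in the cytosol is bound by the helicases RIG-I (Ddx58) and MDA5 (Ifih1), which LGP2 (Dhx58) modulates, and both signal through the mitochondrial adaptor Mavs. Tlr3 binds such RNA in endosomes. Both routes activate the transcription factors Irf3 and Irf7, which switch on Ifnb1, the gene of interferon beta. The secreted protein binds the receptor pair Ifnar1 and Ifnar2 on the same and on neighbouring cells and turns on interferon-stimulated genes, among them Ifih1, Ddx58, Dhx58 and Irf7 themselves.

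The 250 bases before the start of Ifnb1 are shown because this short stretch holds the elements that the interferon regulatory factors and NF-kB are known to bind. Ifnb1 (ENSMUSG00000048806) is a gene of 1 exon on the minus strand of chromosome 4, 88522025 to 88522774 (GRCm38), and the sequence lies at chr4:88522795-88523044 on that strand (RefSeq, GRCm38.p6). Capitals mark 3 matches to the IRF core AANNGAAA, from -159 to -152, -139 to -132 and -126 to -119 counted from the start, and 1 match to the NF-kB consensus from -116 to -107.
Ifnb1: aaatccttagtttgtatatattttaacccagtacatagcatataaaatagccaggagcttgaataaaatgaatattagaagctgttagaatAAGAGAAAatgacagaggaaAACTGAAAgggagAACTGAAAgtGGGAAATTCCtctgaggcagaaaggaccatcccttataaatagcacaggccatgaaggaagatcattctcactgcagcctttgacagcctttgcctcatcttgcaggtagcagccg
Ifih1: aatcGAAACAGAAA
Ddx58: TTTCGATTTC
The Ifih1 and Ddx58 lines are the stretches just after the start of each gene that match the core of the interferon-stimulated response element, in capitals: GAAA, 2 bases of any kind and GAAA again. The Ifih1 stretch runs from +29 to +42 at chr2:62646214-62646227 on the minus strand, in a gene at 62595798 to 62646255 (ENSMUSG00000026896). The Ddx58 stretch runs from +3 to +12 at chr4:40239814-40239823 on the minus strand and carries the core on the opposite strand, in a gene at 40203773 to 40239828 (ENSMUSG00000040296). Both strands were searched in windows from 250 bases before to 50 after a start, and 9 of the 10 genes had one. The response element core was present in 3.44% of 32851 such windows, the IRF core, which overlaps it, in 23.9%, the NF-kB consensus in 8.46% and the AP-1 core TGANTCA in 7.81%. The window of Tlr3 held 1 IRF core and 1 NF-kB match, and no match of these 4 motifs was found in the windows of Irf3, Irf7, Mavs, Ifnar1 and Ifnar2. A match is a description of letters and not a shown binding site.

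In macrophage-like cells Ifnb1 had 194 and 591 UMIs in Prepuberty 1 and 2, 25 and 11 in DCIS 1 and 2, 3 in Tumor 1 and 0 in Tumor 2. In CPM this was 426, 1253, 16.2, 12.4, 1.31 and 0. The states did not overlap, and the level was lower in each DCIS library than in each Prepuberty library and lower again in Tumor. The fitted log2 fold change of DCIS against Prepuberty was -5.62. Over all 7827 genes tested in these cells, 0.128% passed the adjusted threshold in this contrast, and nothing is read from it here because the contrast chose the gene. In Tumor 2 no Ifnb1 was found in 187 cells, which allows a share of cells with a UMI of up to 1.60%.

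A single cell carried most of the Ifnb1 of Prepuberty 2. It held 566 of the 591 UMIs, which was 57.5% of all 985 Ifnb1 UMIs of the series. The same cell held 73 of the 116 Ifih1 UMIs of its class and library. It also held 2842 UMIs of interferon alpha genes, 98.1% of the 2898 counted in all 6 libraries, spread over all 14 Ifna genes listed. Ifna16 had 827 of its UMIs, Ifna2 672, Ifnab 508, Ifna12 384 and Ifna13 290. These 14 genes lie together on chromosome 4 between 88557673 and 88850656, beside Ifnb1, and they resemble each other so closely that the split of UMIs among them is uncertain. Interferon alpha and beta RNA together made up 20.2% of the cell's 16881 UMIs.

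That cell was not plainly a macrophage by its markers. It had UMIs of 1 of the 7 macrophage markers, Cd68 with 15 UMIs, and 0 UMIs of the C1q genes. Pecam1, an endothelial adhesion gene, had 3 UMIs and Lum, a fibroblast gene, had 1, while the markers of the other lists, dendritic cells included, had 0. It expressed 2138 genes, its mitochondrial share was 2.93%, and its doublet score was above that of 95.2% of the macrophage-like cells of its library. It carried 1 UMI of Irf7 and 1 of Ddx58. Without it Ifnb1 in Prepuberty 2 was at 55.0 CPM and the log2 fold change of DCIS against Prepuberty was -4.01, a setting chosen after seeing the data. The level then still exceeded that of each DCIS library.

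In Prepuberty 1 Ifnb1 was spread over more cells. There 23 of 99 macrophage-like cells had an Ifnb1 UMI, and the highest cell held 42 of the 194 UMIs. In Prepuberty 2, 11 of 83 cells had one, in DCIS 1 and 2, 5 of 245 and 7 of 169, and in Tumor 1, 2 of 426. Because cells differed in depth, shares were also taken after thinning each cell to 2000 UMIs, which left out 14 to 91 shallower cells per library. The thinned shares were 23.1% (95% Clopper-Pearson interval 14.3 to 34) and 13.0% (6.14 to 23.3) in Prepuberty 1 and 2, 1.93% (0.529 to 4.87) and 1.504% (0.183 to 5.33) in DCIS 1 and 2, 0.597% (0.0724 to 2.14) in Tumor 1 and 0 of 133 cells in Tumor 2, which allows up to 2.26%. Thinned to 1000 UMIs the shares in Prepuberty were 17.0% (9.87 to 26.6) and 5.19% (1.43 to 12.8). In DCIS they were then 0.444% (0.0113 to 2.45) and 0.654% (0.0165 to 3.59). These intervals cover counting error of cells only. States are not compared by them, because cells are not replicates and this contrast chose the gene. T-cell-like cells, taken as a class that should lack Ifnb1, had 0 UMIs in every library, with a median depth of 1533 to 2534.5 UMIs per cell in the libraries with 20 or more cells after thinning. In those libraries a count of 0 allows a share of up to 3.90% to 15.0%. This lies above the DCIS shares in macrophage-like cells, so the T-cell-like cells are a weak comparison. In fibroblast-like cells the thinned share was at most 0.436%, in DCIS 2.

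**Figure D1:**
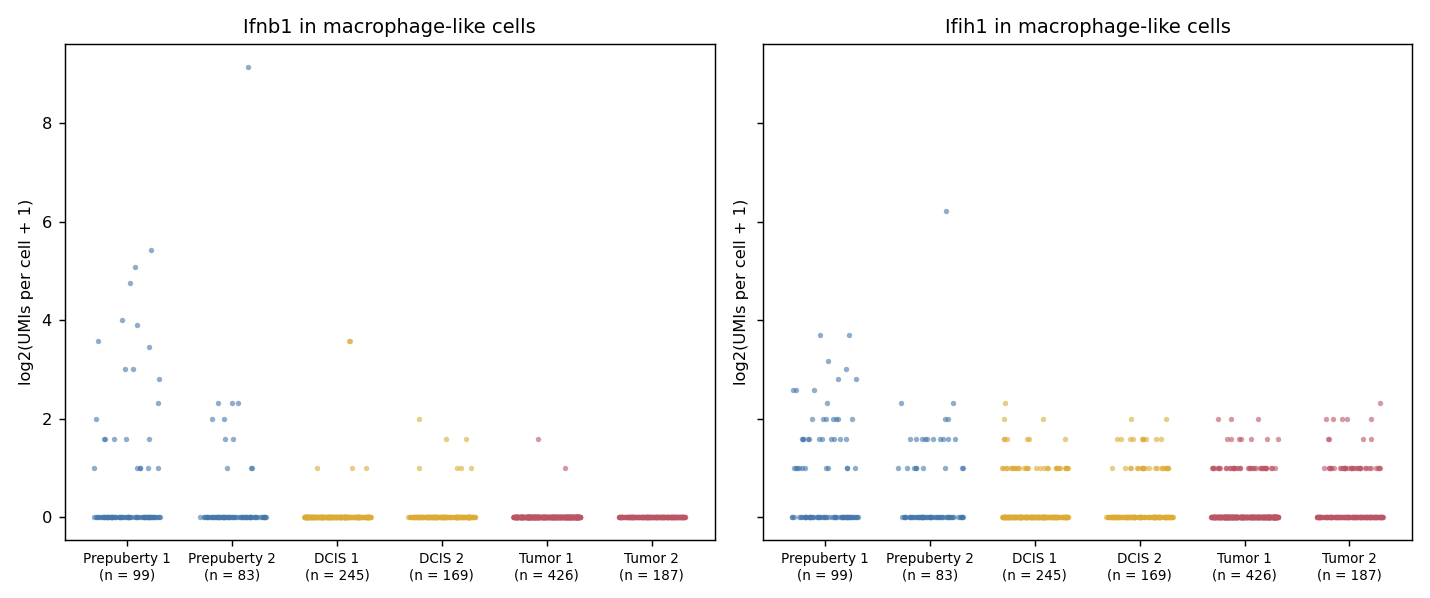
Ifnb1 (left) and Ifih1 (right) in single macrophage-like cells, as log2(UMIs per cell + 1), with each point 1 cell and the number of cells under each library. A single Prepuberty 2 cell with 566 Ifnb1 UMIs and 73 Ifih1 UMIs stands far above all others, and Prepuberty 1 has 23 cells with Ifnb1.

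Ifih1, which encodes MDA5, was the other gene selected on its lower DCIS counts. It had 124 and 116 UMIs in Prepuberty 1 and 2, 52 and 47 in DCIS 1 and 2, and 61 and 59 in Tumor 1 and 2. In the same order the levels were 272 and 246, 33.6 and 53.1, and 26.7 and 38.7 CPM. Prepuberty lay above the other states, and DCIS and Tumor overlapped. The fitted log2 fold change of DCIS against Prepuberty was -2.47. Lower DCIS than Prepuberty levels were not particular to this class. In endothelial-like cells Ifih1 was at 48.8 and 51.5 CPM in Prepuberty and 26.6 and 27.8 CPM in DCIS. In fibroblast-like cells the levels were 32.2 and 23.0, then 14.3 and 13.2 CPM. In epithelial-like cells they were 16.0 and 25.4, then 7.07 and 8.42 CPM. None of these changes passed the threshold. In T-cell-like and Schwann-like cells DCIS overlapped Prepuberty.

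In Prepuberty, though not in the other states, most Ifih1 UMIs lay in the cells that had Ifnb1. These cells held 80 of 124 and 81 of 116 Ifih1 UMIs in Prepuberty 1 and 2, 2 of 52 and 3 of 47 in DCIS 1 and 2, and 0 of 61 in Tumor 1. In Prepuberty 1, 17 of the 23 cells with Ifnb1 also had Ifih1, and these 23 cells held Ifih1 at 903 CPM against 119.8 CPM in the 76 others. In Prepuberty 2, where 5 of 11 cells had both, the levels were 1189 and 86.7 CPM, but the former rests on the single cell described above, which held 73 of the 81 UMIs. Without the cells that had an Ifnb1 UMI, Ifih1 was at 119.8 and 86.7 CPM in Prepuberty, 32.8 and 50.6 CPM in DCIS and 26.9 and 38.7 CPM in Tumor. Prepuberty stayed above the other states, and the log2 fold change of DCIS against Prepuberty was -1.13 in place of -2.47. After thinning, 34.6% and 21.7% of the cells had an Ifih1 UMI in Prepuberty, 6.76% and 11.3% in DCIS and 6.57% and 7.52% in Tumor.

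The makeup of the class varied between libraries and is given beside these values. A C1q UMI was present in 73 of 99 and 31 of 83 cells in Prepuberty, 195 of 245 and 139 of 169 in DCIS, and 279 of 426 and 84 of 187 in Tumor, so Prepuberty 2 and Tumor 2 had the lowest shares. The 7 macrophage markers summed to 3972 and 3187 CPM in Prepuberty 1 and 2, the lowest of the 6 libraries, and to 5084 to 14649 CPM in the others. In C1q-positive cells alone, Ifnb1 was at 528 and 124, 18.8 and 7.51, and 1.62 and 0 CPM, and Ifih1 at 307 and 155, 33.8 and 48.8, and 28.6 and 34.3 CPM, so Prepuberty remained above the other states for both. The 6 neutrophil markers summed to 62.1 to 354 CPM in Prepuberty and DCIS, 946 CPM in Tumor 1 and 4947 CPM in Tumor 2. The 7 dendritic markers summed to 109.7 and 10.6 CPM in Prepuberty, 81.4 and 88.1 CPM in DCIS and 17.1 and 13.1 CPM in Tumor, so DCIS lay above Tumor, as it did for the receptor and interferon-stimulated genes described further on. The 15 dissociation and stress genes summed to 2939 to 3623 CPM in 5 libraries and 6965 CPM in Tumor 1. The part of these in the results was not tested.

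The other sensors, the adaptor and Irf3 were at 2.58 to 48.3 CPM in macrophage-like cells, and their states were ordered differently from gene to gene. Ddx58, which encodes RIG-I, was at 48.3 and 40.3 CPM in Prepuberty, 43.3 and 46.3 CPM in DCIS and 32.4 and 28.2 CPM in Tumor. Dhx58, which encodes LGP2, was at 37.3, 38.2, 34.9, 41.8 and 35.0 CPM in the first 5 libraries and at 18.4 CPM in Tumor 2. For both, Prepuberty and DCIS overlapped. Tlr3 was at 6.58 and 8.48 CPM in Prepuberty, 2.58 and 5.65 CPM in DCIS and 5.25 and 9.19 CPM in Tumor, from 3 to 14 UMIs per library, with DCIS below Prepuberty and Tumor overlapping both. The adaptor Mavs was at 6.58 and 4.24, 17.4 and 10.2, and 8.32 and 13.8 CPM, with Prepuberty, where it had 3 and 2 UMIs, below the other states and DCIS and Tumor overlapping. Irf3, which is activated by phosphorylation rather than by its RNA level, was at 6.58 and 19.1, 9.69 and 10.2, and 26.3 and 32.8 CPM, with Tumor above the other states.

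**Figure D2:**
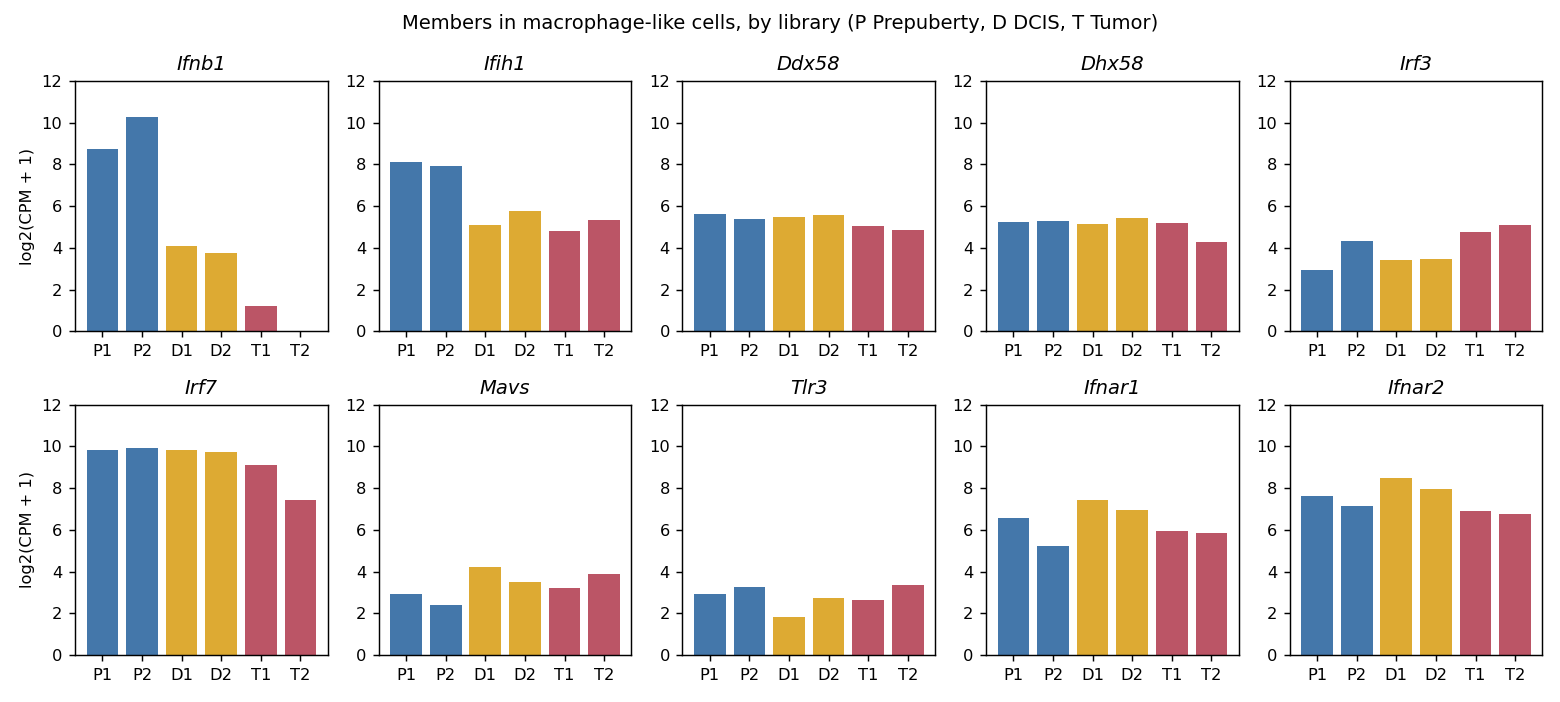
Levels of the 10 genes in macrophage-like cells as log2(CPM + 1), 1 bar per library (P Prepuberty, D DCIS, T Tumor). Ifnb1 steps down from 1253 CPM to 0, Ifih1 is high in P1 and P2 alone, Irf7 is lowest in T2 and Ifnar1 and Ifnar2 peak in D1 and D2.

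Among the 8 members that could be counted in macrophage-like cells, the receptor genes were the 2 that passed the test between DCIS and Tumor. In macrophage-like cells Ifnar2, the chain that docks the kinase Jak1, was at 197 and 139.9 CPM in Prepuberty, 355 and 249.5 CPM in DCIS and 118 and 106 CPM in Tumor. Ifnar1, its partner chain, was at 94.3 and 36.0, 171 and 121, and 60.0 and 57.1 CPM. For both genes each DCIS library lay above the 4 others, but DCIS against Prepuberty did not pass (adjusted p 0.457 for Ifnar2 and 0.431 for Ifnar1, edgeR). Ifnar2 fell from DCIS to Tumor, with a log2 fold change of -2.01 (edgeR quasi-likelihood test with n = 2 libraries per state, SE 0.42, adjusted p 0.0239). Ifnar1 fell too, at -1.90 (edgeR, SE 0.49, adjusted p 0.0450). Ifnb1 and Ifih1 were left out of the count because the contrast that chose them shares these libraries. Irf7, Ddx58 and Dhx58 did not pass, at -1.76, -1.12 and -1.02 (adjusted p 0.0853, 0.0989 and 0.186, edgeR). Over all genes tested 6.45% passed, 37.6% of them higher in Tumor with TMM and 81.6% without it. Without TMM the median of all genes moved up by 0.61. The median change of the 8 members was -1.07 and that of all genes 0.06.

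The Ifnar2 call held without TMM (-1.42, adjusted p 0.0327) and in C1q-positive cells (-1.78, adjusted p 0.0161). It was lost without DCIS 1 (-1.69, adjusted p 0.239), DCIS 2 (-2.30, 0.108) or Tumor 2 (-1.74, 0.0731) and with sums thinned to the smallest library (-1.66, 0.0539). The Ifnar1 call was less firm and was lost in 10 of its 20 alternatives, without TMM (-1.30, adjusted p 0.0679) and without each of the same 3 libraries among them.

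Ifnar2 changed in the same direction in the stromal classes. In fibroblast-like cells it was at 89.4 and 89.7 CPM in Prepuberty, 126 and 119 CPM in DCIS and 47.2 and 66.1 CPM in Tumor. The states did not overlap, and Ifnar2 fell from DCIS to Tumor (log2 fold change -1.82, SE 0.30, adjusted p 0.0142, edgeR), as 1 of 10 members called, where 12.8% of all genes passed. Of the genes that passed, 59.5% were higher in Tumor with TMM and 87.4% without it. Without TMM the median of all genes in these cells moved up by 0.72, so the size of the fall depends on the scaling. In these cells libraries of the same number varied together, and with the replicate number as a block 2 members passed, Ifnar2 (-1.82, adjusted p 0.0108) and Irf7 (-2.40, adjusted p 0.0458). In endothelial-like cells Ifnar2 was at 132 and 139, 200.4 and 147, and 85.9 and 56.5 CPM. It fell from DCIS to Tumor (log2 fold change -1.59, SE 0.35, adjusted p 0.0206, edgeR), as 1 of the 9 members tested, where 14% of all genes passed. The makeup of this class changed between these states. A cluster led by Ackr1 and Selp held 257 of 424 and 171 of 354 cells in DCIS. It held 7 of 78 and 3 of 32 in Tumor. Pooled over libraries, Ifnar2 was at 192 CPM in that cluster and 117 CPM in the endothelial-like cluster led by Gpihbp1. The part of this in the fall was not tested. The call in fibroblast-like cells was lost without DCIS 1 (adjusted p 0.0999) or DCIS 2 (0.119), and that in endothelial-like cells without DCIS 1 (0.123) or Tumor 2 (0.0651), which held 32 such cells.

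The transgene was also counted in the fibroblast-like cells of Tumor. A T-antigen UMI was present in 30.6% and 44.2% of the fibroblast-like cells of Tumor 1 and 2 and in at most 0.623% in the other libraries, and the 7 epithelial markers summed to 633 and 161 CPM there against 15.9 to 75.7 CPM. In fibroblast-like cells without a T-antigen UMI, Ifnar2 was at 89.4 and 89.8 CPM in Prepuberty, 126 and 119 CPM in DCIS and 49.1 and 68.1 CPM in Tumor.

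In epithelial-like cells, the class that the transgene transforms, Ifnar2 was at 55.2 and 39.7 CPM in Prepuberty, 77.6 and 58.2 CPM in DCIS and 26.9 and 35.5 CPM in Tumor. The log2 value of Tumor against DCIS was -1.53 (SE 0.31, adjusted p 0.0562, edgeR), which did not pass, and 0 of 10 members passed where 1.36% of all genes did (4 at an unadjusted p under 0.05). DESeq2 called 3 members, Ifih1, Ifnb1 and Ifnar2, where it called 11.9% of all genes. These did not go the same way. Ifih1 was higher in Tumor, at 7.07 and 8.42 CPM in DCIS and 26.1 and 22.2 CPM in Tumor. Ifnb1 was lower, at 1.95 and 2.38 CPM in DCIS and 0.323 and 0 CPM in Tumor. The change of Ifnar2 was not shown to differ between classes: the difference was -0.16 (SE 0.41, adjusted p 0.891) between macrophage-like and fibroblast-like cells, -0.52 (SE 0.38, adjusted p 0.512) between macrophage-like and epithelial-like cells and -0.37 (SE 0.32, adjusted p 0.539) between fibroblast-like and epithelial-like cells. The Ifnar2 gene (ENSMUSG00000022971, chromosome 16, 91372783 to 91405589) overlaps Gm21970 on the same strand over 13869 bases, and Gm21970 had 0 UMIs against 15267 for Ifnar2. Ifnar1 (ENSMUSG00000022967) lies on the same chromosome at 91485238 to 91507441.

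**Figure D3:**
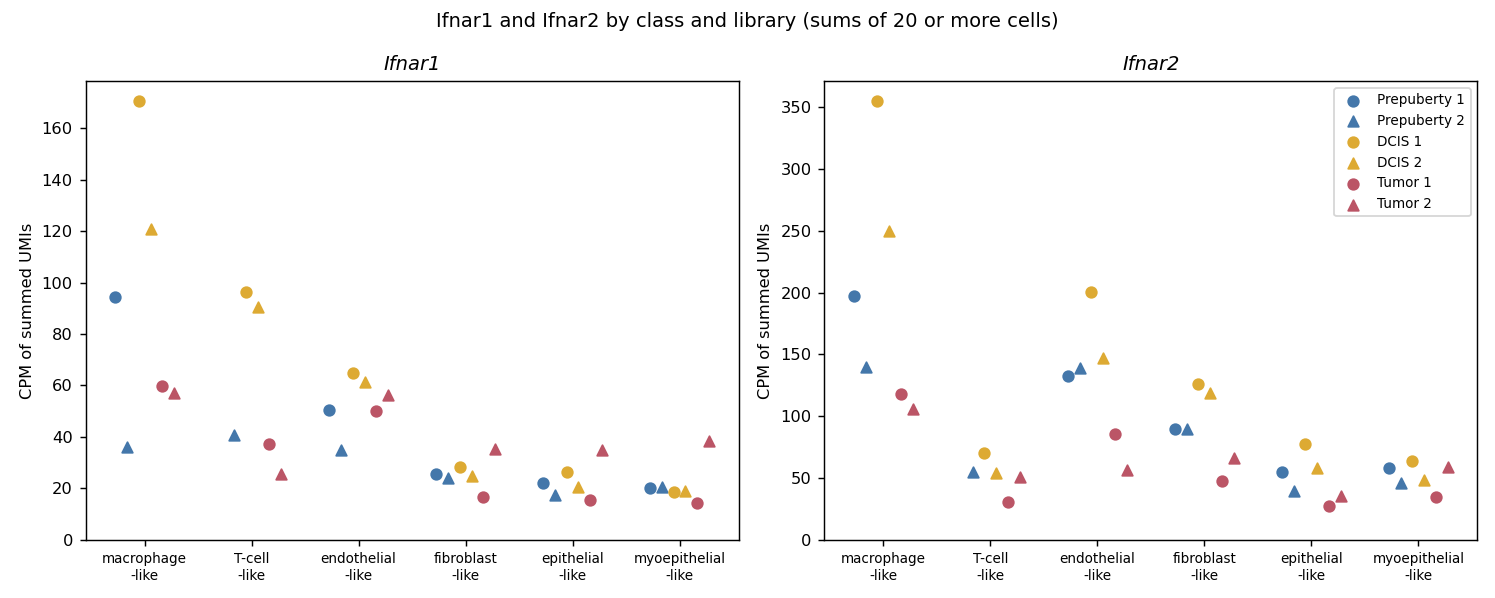
CPM of Ifnar1 (left) and Ifnar2 (right) by class, with 1 marker per library for sums of 20 or more cells. In macrophage-like cells the DCIS libraries are at 171 and 121 CPM for Ifnar1 and at 355 and 249.5 CPM for Ifnar2, above both Tumor libraries.

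Irf7, the interferon-induced factor that amplifies the response, differed between classes in its change from DCIS to Tumor. In macrophage-like cells it was at 912 and 965 CPM in Prepuberty, 902 and 841 CPM in DCIS, 548 CPM in Tumor 1 and 171 CPM in Tumor 2. In fibroblast-like cells the levels were 468 and 312, 323 and 363, and 217 and 42.8 CPM. In both classes Tumor lay below the other states. In epithelial-like cells they were 179 and 177, 76.6 and 69.7, and 163 and 37.1 CPM, so the Tumor libraries stood on either side of DCIS. The makeup of this class changed between these states. A cluster led by Pthlh and Nppb held 34 of 1334 and 77 of 1005 cells in DCIS. It held 559 of 2064 and 206 of 1049 in Tumor. Pooled over libraries, the clusters of this class ranged from 66.5 to 168 CPM for Irf7 and from 32.1 to 78.3 CPM for Ifnar2. The part of this in the changes was not tested.

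The log2 change of Irf7 from DCIS to Tumor was -1.76 in macrophage-like, -1.95 in fibroblast-like and 0.17 in epithelial-like cells, none past the threshold on its own without a block (adjusted p 0.0853, 0.126 and 0.896, edgeR). In fibroblast-like cells the replicate block, given above, and DESeq2 each called it. The difference between classes was tested in fits with the library as a term. It was -1.84 between macrophage-like and epithelial-like cells (SE 0.36, adjusted p 0.00813, edgeR, where 4.59% of all genes passed) and -2.28 between fibroblast-like and epithelial-like cells (SE 0.31, adjusted p 0.00539, where 6.98% passed). Irf7 was the 1 member past the threshold of the 8 counted in the first, which leaves out Ifnb1 and Ifih1 as above, and of the 10 counted in the second. The difference of Ifih1 between macrophage-like and epithelial-like cells was -2.27 (SE 0.46), larger than that of Irf7, and is given without a test because its macrophage-like DCIS level chose the gene. Between macrophage-like and fibroblast-like cells 0 of 8 members passed (0 at an unadjusted p under 0.05, 0 with DESeq2), where 5.94% of all genes did. The macrophage-like difference was lost without DCIS 1 (-1.71, adjusted p 0.140) or DCIS 2 (-1.92, 0.124) and the fibroblast-like difference without DCIS 2 (-2.25, 0.0591), and both held without either Tumor library.

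Within a class the size of the change rested on single Tumor libraries. Without Tumor 2 it was -1.05 in macrophage-like, -1.20 in fibroblast-like, -0.12 in endothelial-like and 0.90 in epithelial-like cells. Without Tumor 1 it was -3.18, -3.95, -3.95 and -1.56, and all 4 classes then passed, with adjusted p from 0.00191 to 0.0253, so the direction in epithelial-like cells turned with the library left out. Irf7 was lowest in Tumor 2 in 5 of the 6 classes with enough cells there.

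Tlr3 had the opposite place in Tumor 2 and was highest there in 6 of 6 classes. In T-cell-like cells this rested on 2 UMIs, against 0 in each other library. In macrophage-like cells Tlr3 was at 9.19 CPM (14 UMIs) there, against 8.48 CPM (4 UMIs) in Prepuberty 2. In epithelial-like cells it was at 7.46 to 18.3 CPM in 5 libraries and 40.5 CPM in Tumor 2, and in endothelial-like cells at 11 to 16.7 CPM in 5 and 52.7 CPM in Tumor 2. Kit version and Tumor 2 cannot be told apart if the study's methods are followed. The median depth of Tumor 2 was the highest of the series, and no call was made for Tlr3 in any class.

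**Figure D4:**
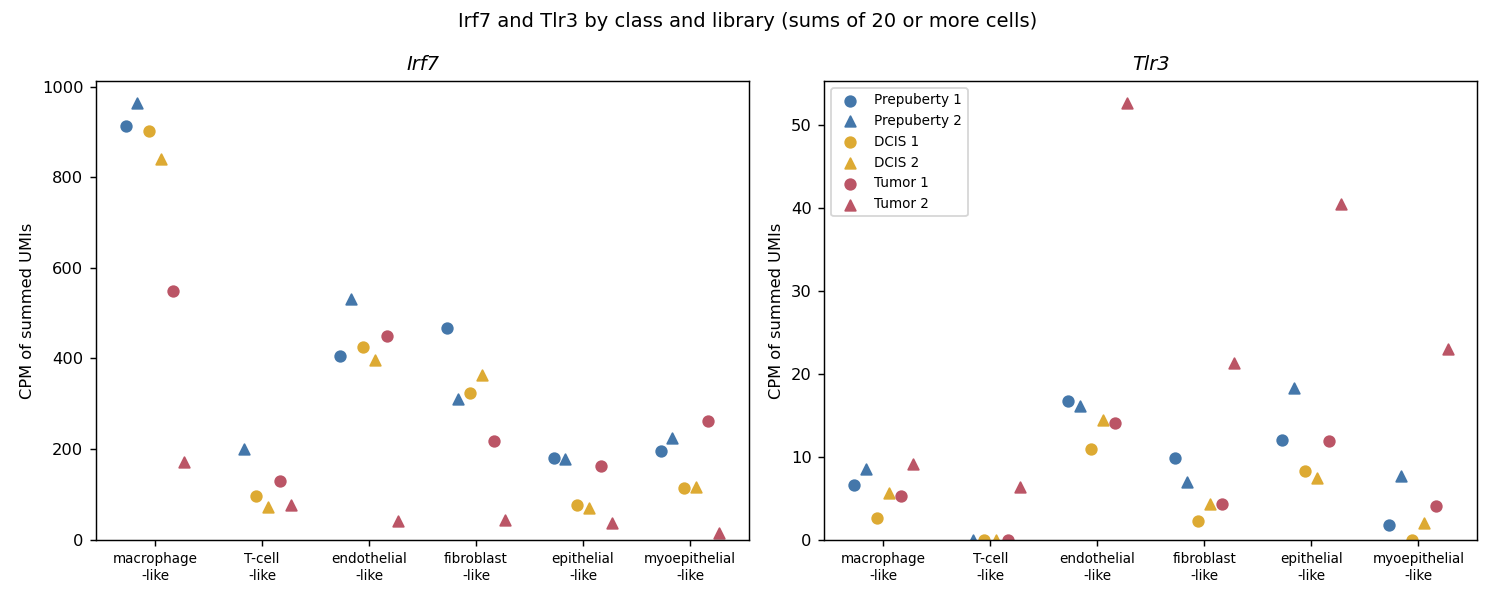
CPM of Irf7 (left) and Tlr3 (right) by class, with 1 marker per library for sums of 20 or more cells. Tumor 2 is the lowest library for Irf7 in 5 of 6 classes and the highest for Tlr3 in 6 of 6.

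Macrophage-like cells had the highest level of Ifnb1, Ifih1, Irf7, Ifnar1 and Ifnar2 among the classes in 5 of 6 libraries each, of Dhx58 in 4, of Mavs in 2 and of Ddx58, Irf3 and Tlr3 in 0. By the median over libraries Ifnb1 was at 14.3 CPM in macrophage-like cells (0 to 1253) and at 0.527 CPM or less in every other class. Epithelial-like cells had 4, 1, 32, 37, 11 and 0 Ifnb1 UMIs in the order Prepuberty 1 to Tumor 2, with DCIS highest at 1.95 and 2.38 CPM, and the fibroblast-like cells had 30, 2, 5, 19, 0 and 0. For Ifih1 the median was 45.9 CPM in macrophage-like cells (26.7 to 272), 31.3 in pericyte- or smooth-muscle-like (12.6 to 75.3) and 30.6 in endothelial-like cells (11.3 to 51.5), and these ranges overlap, as do those of all neighbours further down to 2.66 CPM in Schwann-like cells. Irf7 followed the order macrophage-like (872 CPM), pericyte- or smooth-muscle-like (438), endothelial-like (415) and fibroblast-like (318), with overlapping ranges. Ddx58 was highest by the median in endothelial-like cells (62.4 CPM), Irf3 in epithelial-like cells (39.5 CPM) and Tlr3 in endothelial-like cells (15.3 CPM), again with ranges that overlap those of the next class. Ifnar2 had medians of 169, 136 and 136 CPM in macrophage-like, pericyte- or smooth-muscle-like and endothelial-like cells and 47.4 CPM in epithelial-like cells, the lowest.

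**Figure D5:**
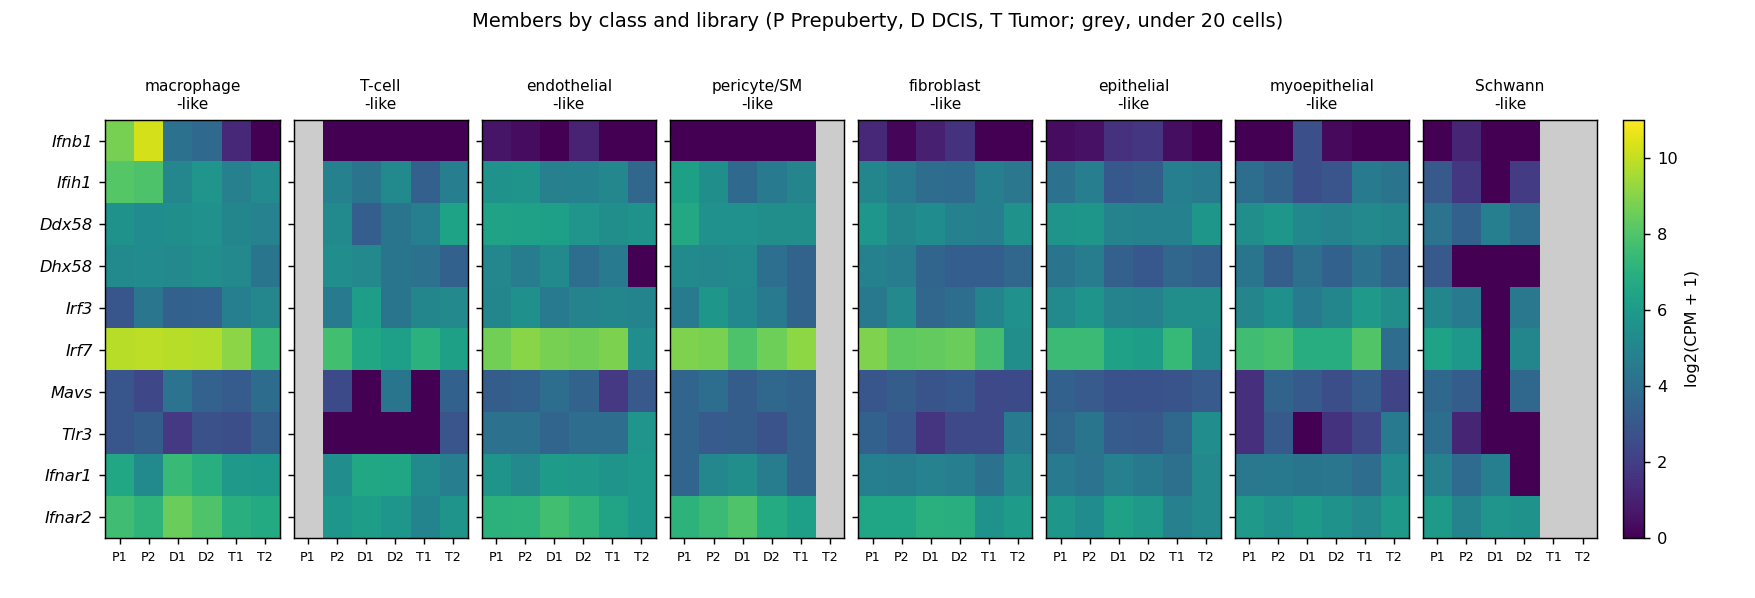
The 10 genes by class and library as log2(CPM + 1) in colour, with grey for sums of under 20 cells. Ifnb1 is bright only in the macrophage-like panel, at P1 and P2, and Irf7 is darkest in T2 in most panels.

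Beyond these values few members passed in the other classes. Between DCIS and Prepuberty edgeR called 0 of 10 in epithelial-like cells (3 at an unadjusted p under 0.05), 0 of 10 in fibroblast-like cells (2) and 0 of 9 in endothelial-like cells (1), and 0% of all genes passed in each of the 3 classes. DESeq2 called 0 members in each too, where it called 321 of 13324, 90 of 12080 and 66 of 10611 genes in the same order. Between Tumor and Prepuberty 1 of 10 passed in fibroblast-like cells, where 8.63% of all genes did. This was Dhx58, at 27.2 and 24.2 CPM in Prepuberty, 11.2 and 8.66 CPM in DCIS and 8.70 and 11.3 CPM in Tumor. It was lower in Tumor than in Prepuberty (log2 fold change -1.84, SE 0.35, adjusted p 0.0234, edgeR). The call was lost without TMM (-1.35, adjusted p 0.0640) and without Prepuberty 1, Prepuberty 2, DCIS 1, DCIS 2 or Tumor 2 (adjusted p 0.0505 to 0.101), and in cells without a T-antigen UMI the Tumor levels were 6.54 and 10.7 CPM. Dhx58 (ENSMUSG00000017830, chromosome 11, 100694884 to 100704271) overlaps the antisense gene Dhx58os over 2637 bases, which had 659 UMIs in the series. In the same contrast edgeR called 0 of 8 members in macrophage-like cells (3 unadjusted, 0 with DESeq2), where 6.03% of all genes passed, 0 of 10 in epithelial-like cells (2 unadjusted, 1 with DESeq2, which called 17.1% of all genes), where 6.3% passed, and 0 of 9 in endothelial-like cells (3 unadjusted, 0 with DESeq2), where 12.3% passed. In T-cell-like cells 5 members could be tested for Tumor against DCIS, and 0 passed (1 unadjusted, 0 with DESeq2), where 0.21% of all genes did.

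Genes that act downstream of the receptor were compared from DCIS to Tumor in macrophage-like cells. Of 30 interferon-stimulated genes 16 were lower, 0 higher and 14 did not pass, where 4.02% of all genes were lower and 2.43% higher. The median log2 change of the list was -1.89 against 0.06 over all genes. Rsad2, an antiviral radical enzyme, fell with a log2 fold change of -3.91 (SE 0.61, adjusted p 0.00725, edgeR) and Cmpk2, its neighbour in the genome, with one of -3.72 (SE 0.48, adjusted p 0.00326). Summed over the list the level was 22781 and 21904 CPM in Prepuberty, 14288 and 14002 CPM in DCIS, and 10437 and 5169.9 CPM in Tumor. The count was 11 without Tumor 2, 3 without DCIS 1, 3 without DCIS 2, 13 without TMM and 18 in C1q-positive cells. Without DCIS 1 and without DCIS 2 the share of all genes called fell too, from 6.45% to 0.634% and 0.781%. Of 13 RNA-binding effectors, 8 were lower and 0 higher, and the lists share 8 genes. This count was 1 without DCIS 1 and 1 without DCIS 2. Ifit2, an RNA-binding inhibitor of translation, was at -3.64 (SE 0.45, adjusted p 0.00278), Ifit1 at -2.63 and Ifit3 at -2.42. Oasl1, which restrains the translation of Irf7, was at -2.90 (SE 0.61, adjusted p 0.0232).

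Between the sensors and Ifnb1, 2 of 15 adaptors, kinases and regulators tested were lower and 0 higher from DCIS to Tumor, where 4.02% of all genes were lower and 2.43% higher. These were Trim25, the ubiquitin ligase that acts on RIG-I (-2.52, SE 0.40, adjusted p 0.00745, edgeR), and Ikbke, a kinase of Irf3 and Irf7 (-1.85, SE 0.48, adjusted p 0.0455). In DNA sensing 1 of 5 genes was higher: Tmem173, which encodes Sting, at 11 and 25.4 CPM in Prepuberty, 3.88 and 2.26 CPM in DCIS and 41.1 and 35.4 CPM in Tumor (2.96, SE 0.56, adjusted p 0.0150). Of 8 signalling genes 1 was lower, Stat2 (-1.64, SE 0.36, adjusted p 0.0276), a transcription factor that acts below the receptor. Of 5 other interferon regulatory factors, 7 NF-kB and AP-1 genes and 3 other interferon or receptor genes, 0 passed with edgeR or DESeq2 (1, 0 and 0 at an unadjusted p under 0.05 with edgeR). Of 15 dissociation and stress genes 2 were higher, Fosb and Fos, but without Tumor 1 the list had 1 higher and 5 lower. None of the calls in these 4 lists was made without DCIS 1 or without DCIS 2. The 2 lower adaptors and kinases became 1 with DESeq2, without TMM, with thinned sums, without Prepuberty 1 and without Tumor 2. Stat2 was not called without TMM, without Tumor 2, with thinned sums or in C1q-positive cells, nor was Tmem173 with thinned sums.

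Against Prepuberty, Tumor had 20 of 30 interferon-stimulated genes lower in macrophage-like cells and 0 higher, where 4.1% of all genes were lower, with Rsad2 at -4.90 (SE 0.64) and Cmpk2 at -4.80 (SE 0.50), and 8 of 13 RNA-binding effectors lower. These counts were 13 and 5 without Prepuberty 1, 14 and 5 without DCIS 2, and 15 and 5 without Tumor 2. Of the signalling genes Socs1, Usp18 and Stat2 were lower, a count of 3 that became 1 without Prepuberty 1, 0 without Prepuberty 2 and 2 without DCIS 2. From DCIS to Tumor 4 of the 30 were lower in fibroblast-like cells, among them Ifit3 (-3.41, SE 0.81, adjusted p 0.0358), where 5.19% of all genes were lower. With the replicate block 11 were lower there. In endothelial-like cells 7 were lower, where 6.57% of all genes were, and 1 was higher, where 7.42% were, the chemokine gene Cxcl10 (2.62, SE 0.70, adjusted p 0.0396). In epithelial-like cells 0 were lower, where 0.938% of all genes were (13 of the 30 at an unadjusted p under 0.05 with edgeR in either direction). DESeq2 called 6 lower and 1 higher there, where it called 11.9% of all genes in either direction, and 12 lower in fibroblast-like cells, where it called 21.2%. Against Prepuberty 8 were lower in epithelial-like cells (3.26% of all genes), 6 in fibroblast-like cells (2.53%) and 8 in endothelial-like cells (5.06%), and 13 in fibroblast-like cells with the replicate block. With a library left out the counts against DCIS were 0 to 7 in epithelial-like, 0 to 16 in fibroblast-like and 0 to 21 in endothelial-like cells, with the lowest without DCIS 1, and those against Prepuberty were 0 to 14 in epithelial-like, 0 to 18 in fibroblast-like and 4 to 22 in endothelial-like cells, with the lowest without Prepuberty 1. The counts with the replicate block or with a library left out stand without the share of all genes called in those fits. They cannot be read as a change in these genes alone. Whether these counts differ between classes was not tested. In endothelial-like cells 4 of 16 adaptors, kinases and regulators were lower and 1 higher from DCIS to Tumor, with Tank, an adaptor of the kinases of Irf3, at -2.45 (SE 0.49, adjusted p 0.0145, edgeR). There 2 of 11 RNA-binding effectors, Ifit2 and Oasl1, and 1 of 5 DNA sensing genes, Samhd1, were lower, as were 5 of 15 dissociation and stress genes. Irf8 was the 1 of 4 other interferon regulatory factors that passed, higher in Tumor than in DCIS (2.28, SE 0.32, adjusted p 0.00394).

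Across 44 sums of a class in a library (8 classes, 20 or more cells each) the genes most like Ifnb1 by Pearson correlation of log2 CPM were Gm15056 (0.86), Clec4d (0.80), Acod1 (0.80), Ccl22 (0.79) and Gm13822 (0.77). Those most like Ifih1 were Rnf213 (0.87), Blvra (0.84), Ddx60 (0.82), Samhd1 (0.82) and Lgals3bp (0.80), and those most like Irf7 were Ube2l6 (0.88), Ehd1 (0.86), Lgals3bp (0.86), Lgals9 (0.84) and Rnf213 (0.83). Rnf213 and Lgals3bp were thus on both lists. Tlr3 was most like Snx7 (0.81), Plxnb2, Slc35a3, Cryz and Atxn1l (0.79 each). These values describe 10738 genes over sums that share libraries, classes and depth. Ifnb1 had a UMI in 20 of the 44 sums, against 43 for Ifih1 and for Irf7 and 37 for Tlr3. In the Prepuberty 2 sum of macrophage-like cells, 566 of its 591 UMIs came from a single cell.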

How the data were processed

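Single-cell RNA was counted by the authors with Cell Ranger 3.0.2 (per the file headers) as UMI counts per gene and cell, and the deposited matrices, 1 per library, hold these raw counts. The labels' processing notes name mm10, and also STAR, SAMtools, Picard and Salmon without a role for these libraries. The T-antigen sequence was among the counted features. No cell annotation was used here, so cells were clustered anew.

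Cells with at least 200 genes and a mitochondrial share under 10% were kept. Scrublet (scanpy 1.11.5) scored doublets, and the highest scores were removed at 0.8% per 1000 cells (715 cells, 2.19% to 3.71% of a library) because Scrublet's own threshold called only 31 cells. In all, 21537 of the 23835 barcodes passed. Libraries were integrated with Seurat 5.3.0 (2000 variable genes, 20 dimensions), clustered at resolution 0.8 into 24 clusters, and a cluster took a name where 3 or more markers each reached a share of 0.25 of its cells and a mean 2 times that of the remaining cells. This gave no name to 7 clusters with 3159 cells. The ending "-like" marks names rebuilt from markers, so shares or levels may differ from the study's own annotation.

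UMIs were summed per class and library with at least 10 cells, since cells are not replicates, and compared with the two-sided quasi-likelihood F test of edgeR 4.0.16 (R 4.3.3, TMM, filterByExpr, 1 fit over the 3 states) with Benjamini-Hochberg adjustment over all genes tested and a threshold of 0.05. Macrophage-like sums held 455908 to 2285012 UMIs. Differences between classes were tested as the interaction of class and state with library as a term. SEs come from the F statistic. The test was tried on simulated counts with known changes. The alternatives were DESeq2 1.42.0, no TMM, no filter, a replicate block, thinned sums, no integration, resolution 1.2, a mitochondrial limit of 5%, no doublet removal, only the 4 libraries compared, C1q-positive cells and each library left out. Leaving out the cells with most Ifnb1 was added after seeing the data. Annotation was GENCODE M21.

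The replicate numbers of the labels are shared between states. Deviations of same-numbered libraries from their state means correlated at 0.356, 0.127 and 0.202 over the 3 pairs of states in fibroblast-like cells, each over 0.1, so the blocked fit is given beside the results there where it changes a call or a count. In macrophage-like, epithelial-like and endothelial-like cells at least 1 of the 3 was under 0.1.

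The 10 members, the gene lists and the markers were chosen with earlier results of these data known. All members are described. Fold changes are given for members past the threshold and, where classes are compared, for Ifnar2 and Irf7 in each class. From a list at most 4 genes past the threshold are named in macrophage-like cells and 2 in another class, by size of change, and fewer are printed where lists share genes.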

Additional observations from a re-analysis of the deposited data

Results flagged for a closer look

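Irf7 was singled out, with Ifnb1 and Ifih1 not considered in macrophage-like cells, because its change from DCIS to Tumor differed between classes by a test of the difference itself. The difference was -1.84 on the log2 scale between macrophage-like and epithelial-like cells (SE 0.36, adjusted p 0.00813, edgeR) and -2.28 between fibroblast-like and epithelial-like cells (SE 0.31, adjusted p 0.00539). The first was between -2.53 and -1.61 and the second between -2.81 and -1.92 over the alternatives. Of the epithelial-like libraries, Tumor 1 was at 163 CPM and Tumor 2 at 37.1 CPM, whereas both were below each DCIS library in macrophage-like and fibroblast-like cells. With 2 libraries per state no library could be tested as an outlier.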

How the results depend on the processing

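The 5 fold changes of called members kept their direction in all 88 alternatives and their call in 64. Counts of members past the threshold moved more, and the cause was not tested. For Tumor against DCIS in macrophage-like cells, 2 became 1 without TMM, without integration, at resolution 1.2, without doublet removal, in C1q-positive cells and without cells that had an Ifnb1 UMI, 0 with thinned sums, 3 without a filter and with the replicate block, and 0 to 5 with a library left out. In epithelial-like cells 0 became 3 with DESeq2, 4 without a filter on low counts, 1 with thinned sums and 0 to 4 with a library left out. In fibroblast-like cells 1 became 3 with DESeq2, 2 without TMM, 3 without a filter, 2 with the replicate block and 0 to 2 with a library left out, and in endothelial-like cells 1 became 3 without a filter and 0 to 2 with a library left out. For Tumor against Prepuberty, macrophage-like 0 became 1 without a filter, 1 with the replicate block and 0 to 2 with a library left out, epithelial-like 0 became 1 with DESeq2, 1 without a filter and 0 to 2 with a library left out, fibroblast-like 1 became 2 with DESeq2, 0 without TMM, 4 without a filter and 0 to 2 with a library left out, and endothelial-like 0 became 3 without a filter, 1 with the replicate block and 0 to 2 with a library left out. Members whose change differed between classes numbered 0 to 1 with a library left out for macrophage-like against fibroblast-like cells (main 0), 2 without a filter, 2 with the replicate block and 0 to 3 with a library left out for macrophage-like against epithelial-like cells (main 1), and 0 to 1 with a library left out for fibroblast-like against epithelial-like cells (main 1). The replicate block changed no other count of members by over 1.5 times. In endothelial-like cells it moved the interferon-stimulated genes that were lower from 7 to 15 against DCIS and from 8 to 18 against Prepuberty. The share of all genes called with the block is not given beside these counts.

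The DCIS against Prepuberty value of Ifnb1 was -4.01 without the cell with most Ifnb1 of Prepuberty 2, -4.36 without the cell with most Ifnb1 of each library and -6.10 to -4.86 with a library left out. That of Ifih1 was -1.96 without the cell with most Ifnb1 of each library, -1.13 without cells that had an Ifnb1 UMI and -2.76 to -2.20 with a library left out. Over all genes, the count of calls for Tumor against DCIS was 505 in macrophage-like cells and 920 without TMM, 1176 without a filter and 230 with thinned sums. It was 181 in epithelial-like cells and 1585 with DESeq2, 2002 without a filter, 15 with the replicate block, 17 with only the 4 libraries compared and 0 without integration. It was 1549 in fibroblast-like cells and 2566 with DESeq2, 3126 without TMM, 3083 without a filter and 626 without integration, and 1484 in endothelial-like cells and 2353 without a filter and 643 with thinned sums. With a library left out it ran from 51 to 920, 0 to 1501, 28 to 2039 and 457 to 1292 in these classes. For Tumor against Prepuberty, 472, 840, 1043 and 1304 became 1018, 2743, 2545 and 2197 without a filter. A library left out leaves 1 in its state, which is then assumed to vary like the others. In macrophage-like cells Tlr3 rests on 3 to 14 UMIs per library and Mavs on 2 to 27, which limits their precision, and Ifnb1 rests on 0 to 37 in epithelial-like and 0 to 30 in fibroblast-like cells. Thinned to 1000 in place of 2000 UMIs, the share of macrophage-like cells with Ifnb1 was 17.0% and 5.19% in Prepuberty, 0.444% and 0.654% in DCIS and 0 in Tumor.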

Other observations

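Interferons other than alpha and beta were counted in other cells. Ifnk, the interferon kappa gene, had 727 UMIs in 314 cells, and 561 of them lay in epithelial-like cells. Ifnl2 and Ifnl3, the type III interferon genes, had 10 and 24 UMIs, all in epithelial-like cells. Ifng, the type II interferon gene, had 29 UMIs, 22 of them in T-cell-like cells, and Ifne had 0 UMIs in any cell. Outside the single Prepuberty 2 cell, Ifna genes had 34 UMIs in 34 cells of Prepuberty 2, 2 in DCIS 2 and 20 in Tumor 1, with no cell above 1 UMI.

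Tnf and Il1b, looked at after the data had been seen, were compared between macrophage-like cells with and without Ifnb1, and the Prepuberty libraries did not go the same way in Tnf and Irf7. In Prepuberty 1 the 23 cells with an Ifnb1 UMI had Tnf at 1264 CPM against 84.4 CPM in the 76 others, and 1 UMI of Il1b against 268. Irf7 was at 305 CPM in the former and 1059 CPM in the latter, and the 30 interferon-stimulated genes summed to 28812 and 21327 CPM. In Prepuberty 2 the 11 cells with Ifnb1 had Tnf at 44.0 CPM against 116 CPM in the 72 others, Irf7 at 1277 against 912 CPM and Il1b at 1 UMI against 195, and the 30 genes summed to 46243 and 17795 CPM. At resolution 1.2, a cluster with 47 of the Prepuberty 1 cells held 191 of the 194 Ifnb1 UMIs and 93 of the 124 Ifih1 UMIs of that library. In Prepuberty 2 the same cluster had 28 cells, with 9 of the 591 Ifnb1 UMIs, 4 of the 11 cells with Ifnb1 and 9 of the 116 Ifih1 UMIs. Cells were grouped here by the measured gene, so no test was made.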
